A study of Homo sapiens with 4 samples.

Results

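The genes described here are 35 targets that the transcription factors p53, p63 and p73 are reported to switch on. They were measured in BJ-TE cells, a human cell line that is derived from the BJ foreskin fibroblast. A probe set of the Affymetrix array counted as a member when its annotation named one of these genes and no other. That gave 47 of 22277 probe sets, for 27 of the 35 genes, out of 11963 genes named on the array. The other 8 (BBC3, SESN2, RRM2B, BTG2, TP53INP1, FDXR, POLK and SERTAD1) were not analysed here. The 4 arrays are p73 shRNA at 100% confluence, ns shRNA at 100% confluence, p73 shRNA at 40% confluence and ns shRNA at 40% confluence, with 1 array each. A short hairpin RNA (shRNA) lowers the messenger RNA it matches, and ns is the control hairpin in the labels. Every array holds a hairpin, so none shows untreated cells. The labels give neither the hairpins' sequences, nor how many clones each culture held, nor which transgenes the line carries. All 10 fibroblast markers examined lay above the brightness filter described below, and none of the 7 epithelial, 5 endothelial, 4 blood and 3 melanocyte markers measured did. TP73, the gene the hairpin is aimed at, had 1 probe set with intensities of 2.04 (p73 shRNA) and 1.65 (ns shRNA) at 100% confluence and 2.09 (p73 shRNA) and 1.68 (ns shRNA) at 40%. These values are at the floor of the array, so they do not check which cultures carried the p73 hairpin.

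The p53 family proteins bind DNA as tetramers, at sites made of 2 adjoining copies of a short half-site. p53 is kept low by the ubiquitin ligase MDM2, itself a target, and DNA damage or other stress releases it from that control. Its targets stop the cell cycle, repair DNA, limit growth signalling or prepare cell death, and many of them are also driven by other stress pathways. p73 binds the same kind of site.

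The promoter stretches below are shown because they hold a match to the family's binding site in members whose values are given in what follows. They come from RefSeq (GRCh38.p14) and are printed 5′ to 3′ on the gene's own strand. Capitals mark the matched half-sites. FAS is shown at the last of its 3 annotated start sites and MDM2 at its downstream promoter, the one known to respond to p53.
DDB2, chr11:47214939-47215003, plus strand: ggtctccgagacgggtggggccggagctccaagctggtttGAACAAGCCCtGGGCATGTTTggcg
FAS, chr10:88991269-88991368, plus strand: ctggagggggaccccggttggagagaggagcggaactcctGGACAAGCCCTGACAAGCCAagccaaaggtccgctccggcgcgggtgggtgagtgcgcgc
GDF15, chr19:18386178-18386207, plus strand: acctgcacAGCCATGCCCGGGCAAGAACtc
PMAIP1, chr18:59899771-59899870, plus strand: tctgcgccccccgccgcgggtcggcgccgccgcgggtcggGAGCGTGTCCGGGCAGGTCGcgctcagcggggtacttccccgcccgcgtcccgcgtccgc
AEN, chr15:88621266-88621365, plus strand: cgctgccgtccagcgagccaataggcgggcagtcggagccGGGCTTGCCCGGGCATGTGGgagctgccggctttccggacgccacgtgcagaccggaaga
PLK2, chr5:58460156-58460258, minus strand: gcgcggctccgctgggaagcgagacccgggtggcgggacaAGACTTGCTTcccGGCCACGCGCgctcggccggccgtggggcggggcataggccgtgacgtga
SESN1, chr6:109008978-109009077, minus strand: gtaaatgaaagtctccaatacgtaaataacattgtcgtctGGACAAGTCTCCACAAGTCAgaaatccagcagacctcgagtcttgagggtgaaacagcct
MDM2, chr12:68808883-68808982, plus strand: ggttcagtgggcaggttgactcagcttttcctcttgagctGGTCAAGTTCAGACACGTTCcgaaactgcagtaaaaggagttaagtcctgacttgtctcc
A half-site was taken as 3 purines, C, then 2 bases that are each A or T, G and 3 pyrimidines, which reads the same on both strands. A paired match was 2 half-sites with a spacer of at most 3 bases, C and G in place in both, and at most 3 mismatches in all. The windows searched ran from 250 bases before to 50 after each annotated start site, and 30 of the 35 members had one or more that were counted, 44 windows in all. The member counts leave out windows on the chromosome of TNFRSF10B, RRM2B and TP53INP1. No such limit was set for the share over all windows. A paired match lay in 11 of the 44 windows, belonging to 10 genes, and in 4.75% of all 35116 windows of the same length. The 2 windows at the downstream MDM2 promoter overlap and hold the same match. The other matched genes were FDXR, which was not measured, and TP53AIP1. Only the DDB2 match had no mismatch, with a spacer of 1 base, and it lies 6 to 26 bases after the start site. Those of AEN (positions -34 to -15 from the start site), FAS (-122 to -103) and MDM2 had 2 mismatches, and those of GDF15, PMAIP1, SESN1 and PLK2 had 3. EI24 had a single exact half-site and no pair. An exact half-site was found in 7 of the 44 member windows and in 6.63% of all windows. A match describes the letters of these windows and does not show binding. Genes without one, such as BAX, TIGAR or PPM1D, may have sites outside the window.

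**Figure D1:**
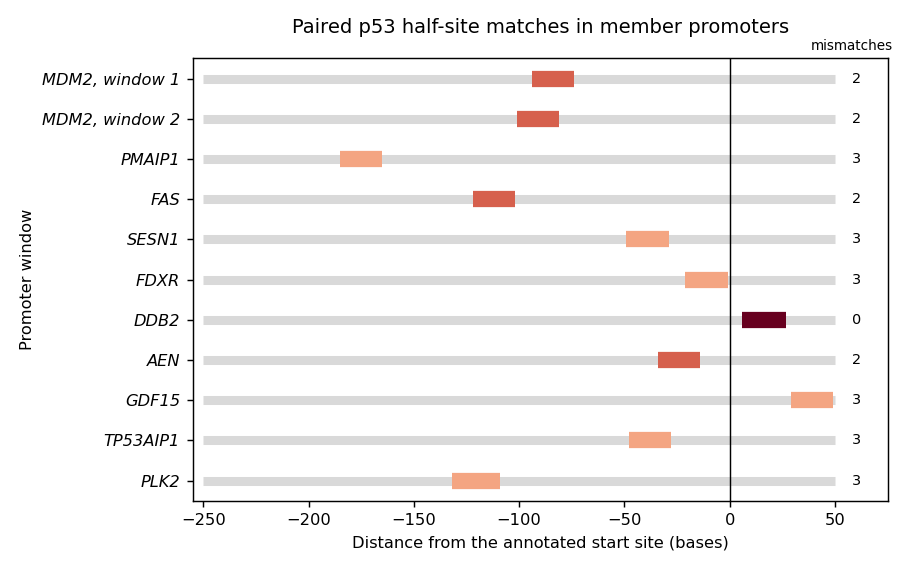
Position of the paired p53 half-site matches (coloured bars) in 11 promoter windows (grey) of 10 member genes, as distance in bases from the annotated start site (vertical line at 0); darker bars have fewer mismatches, and the number stands at the right. The matches of GDF15 and DDB2 lie after the start site and the others before it; DDB2 is the one with 0 mismatches.

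Values are intensities as deposited. Ratios are log2 ratios of intensity plus 11.6, a pseudocount that makes the ratios of dim genes smaller. Each gene is represented by its brightest probe set, and a gene was tested when its mean over the 4 arrays reached the median of all probe sets, an intensity of about 111. Of the 27 measured members 24 passed this filter, and MDM2, TP53AIP1 and CYFIP2 did not. Genes were tested with limma over all 4 arrays, in a model with confluence and hairpin, and passed at a Benjamini-Hochberg adjusted p below 0.05 over 6759 genes. Each comparison averages 2 pairs of arrays, and the only spread available is how far the 2 pairs differ, pooled in part over genes. Whether the cultures were set up separately is not in the labels, and a p-value here speaks only of the spread among these 4 arrays. The RNA is from whole cultures, where fewer cells of a kind and less RNA per cell cannot be told apart.

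Confluent cultures were compared with cultures at 40% confluence, which answers how the targets change when the cells reach full density. Of the 24 members, 7 rose at confluence, 4 fell and 13 did not pass. Over all genes tested, 18.3% rose and 12.3% fell by the same rule, so 30.6% passed in either direction, against 11 of 24 members. Of these 11, GDF15 passed the brightness filter only through its confluent arrays. SESN1, which limma did not call, entered the test in the same way. Thus 2 of the 24 members (8.33%) and 3.95% of all genes tested passed that filter through 1 stage only. Of the 2070 genes called, 197 passed that filter through 1 stage only. After dividing the arrays by their medians, 815 genes rose and 1754 fell in place of 1237 and 833, and 6 members rose and 6 fell. The number of members called was 7 at a stricter filter that tests 11 of them and 9 to 12 under 8 other settings, but without the brightness filter limma called 0 members at confluence (10 of 27 had an unadjusted p below 0.05; adjusted p of the 11 between 0.188 and 0.297). The median log2 ratio of the 24 members was 0.38 with p73 shRNA and 0.30 with ns shRNA, and that of all genes 0.02 and 0.01. The arrays of the 2 stages did not overlap for 20 members, 13 higher and 7 lower at confluence, while over all genes the arrays did not overlap for 64.5%, with 33.7% higher and 30.8% lower. The direction was the same with both hairpins for 21 members (87.5%) and 76.2% of all genes. GDF15 and SESN1 are among the 13 members higher at confluence and among these 21. A change of at least 1.5-fold with both was seen in 9 members (37.5%) and 15.6% of genes, and of at least 2-fold in 4 members (16.7%) and 4.54% of genes. GDF15 is among the members counted at both cutoffs. The members were chosen with earlier results of these data known, so their shares are no independent test. An unadjusted p below 0.05 was reached by 15 members and 42.3% of genes. With an intensity trend in the spread, 8 members rose, XPC among them, and 4 fell, against 20.4% and 16.1% of genes. The members that rose were the death receptors FAS and TNFRSF10B, the BCL2 family protein PMAIP1, the repair protein DDB2, the phosphatase PPM1D, the secreted factor GDF15 and the surface protein FLRT2. Those that fell were GADD45A, AEN, PLK2 and TIGAR. Of the 7 tested genes with a paired match in the promoter, 4 rose (FAS, PMAIP1, DDB2 and GDF15), 2 fell (AEN and PLK2) and SESN1 did not pass. Of the 14 tested genes with a promoter window and no paired match, 2 rose, 1 fell and 11 did not pass. GADD45A, TNFRSF10B and PHLDA3 had no window counted and are in neither group. The shares called among all genes with and without a match were not counted. These few genes therefore do not show whether a match goes with a change at confluence.

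**Figure D2:**
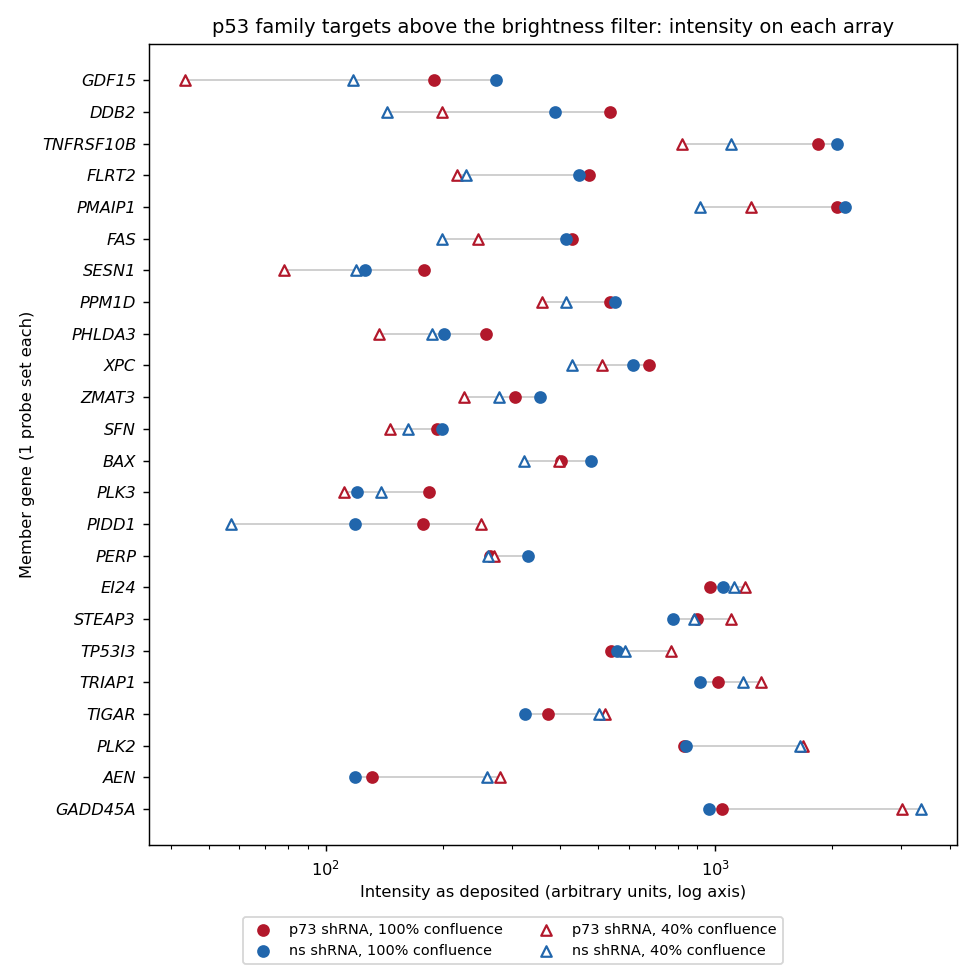
Intensity as deposited (horizontal log axis, arbitrary units) of the 24 members above the brightness filter on each of the 4 arrays; circles are 100% and triangles 40% confluence, red is p73 shRNA and blue ns shRNA, and genes are ordered by their average confluence ratio, with GDF15 at the top and GADD45A at the bottom. Circles lie clear of the triangles in most rows, and red and blue symbols of one shape lie close together in most rows, with GDF15 and PIDD1 as exceptions.

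Negative feedback on p53 is represented by PPM1D and MDM2. PPM1D, the phosphatase that shuts off p53 and its activating kinases, had intensities of 538 (p73 shRNA) and 552 (ns shRNA) at 100% confluence, against 360 (p73 shRNA) and 414 (ns shRNA) at 40%. Both confluent arrays were above both arrays of sparse cells. Its average log2 ratio of 0.49 (SE 0.18, limma adjusted p 0.0453) is just past the threshold and was lost in 7 of 10 alternative settings. MDM2 lay below the filter with all 5 of its probe sets. Its brightest had 155 (p73 shRNA) and 94.5 (ns shRNA) at 100% confluence, against 53.6 (p73 shRNA) and 6.25 (ns shRNA) at 40%. The next had 73.3 (p73 shRNA) and 93.4 (ns shRNA) at 100%, against 17.7 (p73 shRNA) and 31.2 (ns shRNA) at 40%. These 2 were higher on both confluent arrays, while the other 3 stayed at or below 28.6 on every array with the hairpins in no common order, so MDM2 is given as values without a call. MDM4, the relative of MDM2 that restrains p53, was at or below 9.94 on all arrays.

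The death receptors were higher at confluence. TNFRSF10B, which binds the ligand TRAIL, had 1831 (p73 shRNA) and 2051 (ns shRNA) at 100% confluence, against 823 (p73 shRNA) and 1098 (ns shRNA) at 40%. It rose 2.02-fold on the scale with the pseudocount (log2 1.02, SE 0.18, limma adjusted p 0.000431). The stages did not overlap for this probe set, but its other 2 probe sets did not follow it with p73 shRNA, at log2 ratios of 0.05 and -0.23, while they were higher by 1.09 and 0.51 with ns shRNA. The mean over its 3 probe sets was 0.58 (limma adjusted p 0.0479). Both dimmer probe sets carry the suffix by which Affymetrix marks probes that can bind other transcripts, as do the GDF15 probe set used here, the brightest of MDM2 and 2 of the 4 of FAS. FAS, the receptor of FAS ligand, had 429 (p73 shRNA) and 414 (ns shRNA) at 100% confluence, against 246 (p73 shRNA) and 199 (ns shRNA) at 40%. Its average log2 ratio was 0.90 (SE 0.18, limma adjusted p 0.00111). All 4 FAS probe sets were higher at confluence with both hairpins, by 0.58 to 1.43. PIDD1, a death-domain scaffold that activates caspase-2, went opposite ways, at -0.47 with p73 shRNA and 0.92 with ns shRNA, and did not pass (average 0.23, limma adjusted p 0.51).

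In the mitochondrial and caspase pathway, 1 of 7 members rose, 1 fell and 5 did not pass. This share called, 28.6%, was near the 30.6% of all genes. PMAIP1 (NOXA), which blocks survival proteins of the BCL2 family, had 2060 (p73 shRNA) and 2152 (ns shRNA) at 100% confluence, against 1235 (p73 shRNA) and 914 (ns shRNA) at 40%. It rose 1.97-fold (log2 0.98, SE 0.18, limma adjusted p 0.000808), and its second probe set was higher too, by 1.39 with p73 shRNA and 0.77 with ns shRNA. AEN, an exonuclease that degrades nucleic acids in dying cells, had 131 (p73 shRNA) and 119 (ns shRNA) at 100% confluence, against 279 (p73 shRNA) and 259 (ns shRNA) at 40%. It fell with both hairpins by nearly the same ratio, -1.02 with p73 shRNA and -1.06 with ns shRNA, or -1.04 on average (SE 0.17, limma adjusted p 0.000315). BAX, which opens the outer mitochondrial membrane, was nearly level with p73 shRNA (log2 ratio 0.02) and at 0.56 with ns shRNA, and did not pass (average 0.29, limma adjusted p 0.257). The others that did not pass were TP53I3, an oxidoreductase (-0.28), the small anti-apoptotic protein TRIAP1 (-0.36), EI24 of the endoplasmic reticulum (-0.19) and PERP, a membrane protein of cell junctions (0.15, and -0.040 after dividing the arrays by their medians). TP53AIP1, a mitochondrial protein, had intensities of 37.2 or lower with both its probe sets and has no call.

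Among the 6 members that hold back the cell cycle or growth signals, 2 fell and 4 did not pass. This share called, 33.3%, was near the 30.6% of all genes. GADD45A, which slows the cycle after DNA damage, had 1039 (p73 shRNA) and 965 (ns shRNA) at 100% confluence, against 3018 (p73 shRNA) and 3369 (ns shRNA) at 40%. It was 3.16-fold lower at confluence (log2 -1.66, SE 0.18, limma adjusted p 3.2e-06), the lowest average ratio among the 24 members. PLK2, a polo-like kinase of the stress response, had 834 (p73 shRNA) and 842 (ns shRNA) at 100% confluence, against 1683 (p73 shRNA) and 1655 (ns shRNA) at 40%. It was 1.98-fold lower (log2 -0.98, SE 0.17, limma adjusted p 5e-04). Its relative PLK3 showed no common direction, at 0.67 with p73 shRNA and -0.19 with ns shRNA, and did not pass (limma adjusted p 0.394). PHLDA3, which competes with the kinase AKT for membrane lipids, was higher with p73 shRNA (0.86) more than with ns shRNA (0.10) and did not pass (limma adjusted p 0.0734). SFN (14-3-3 sigma) averaged 0.32 and the RNA-binding protein ZMAT3 averaged 0.38, and neither passed.

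Both measured repair genes belong to nucleotide excision repair. DDB2, which finds ultraviolet damage in DNA, had 536 (p73 shRNA) and 387 (ns shRNA) at 100% confluence, against 199 (p73 shRNA) and 144 (ns shRNA) at 40%. The rise was 2.58-fold (log2 1.37, SE 0.17, limma adjusted p 2.04e-05) and alike with both hairpins, at 1.38 with p73 shRNA and 1.36 with ns shRNA. XPC, its partner in damage recognition, averaged 0.45 (SE 0.18, limma adjusted p 0.0602), just short of the threshold, and passed in 3 of 10 alternative settings. XPC was at 676 (p73 shRNA) and 616 (ns shRNA) at 100% confluence, against 513 (p73 shRNA) and 428 (ns shRNA) at 40%, so the stages did not overlap.

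For the metabolic members, TIGAR, an enzyme that slows glycolysis, fell and the others did not pass. This share called, 33.3%, was near the 30.6% of all genes. TIGAR had 372 (p73 shRNA) and 324 (ns shRNA) at 100% confluence, against 521 (p73 shRNA) and 503 (ns shRNA) at 40% (log2 -0.54, SE 0.18, limma adjusted p 0.0261, and 0.0646 in a model without the hairpin). SESN1, a sestrin that restrains the growth kinase complex mTORC1, had 178 (p73 shRNA) and 126 (ns shRNA) at 100% confluence, against 78.0 (p73 shRNA) and 119 (ns shRNA) at 40%. Nearly all of its difference came from p73 shRNA, at 1.08 against 0.07 with ns shRNA, and it missed the threshold narrowly (average 0.58, SE 0.21, limma adjusted p 0.0506). SESN1 was tested only because its confluent arrays are high. Its mean log2 level was 7.34 at 100% confluence and 6.76 at 40%, where the filter lies at 6.94. STEAP3, a ferric reductase of iron uptake, averaged -0.24 and did not pass.

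The secreted and surface members both rose. GDF15, a stress hormone of the TGF-beta superfamily, had 190 (p73 shRNA) and 273 (ns shRNA) at 100% confluence, against 43.6 (p73 shRNA) and 117 (ns shRNA) at 40%. It rose 2.84-fold (limma adjusted p 2.48e-05), with log2 ratios of 1.87 with p73 shRNA and 1.14 with ns shRNA (SE of their average 0.20), and its second probe set was at or below 11.0 on all arrays. GDF15 passed the filter only through its confluent arrays: its mean log2 level was 7.90 at 100% confluence and 6.40 at 40%, where the filter lies at 6.94, so its call depends on the filter (limma adjusted p 0.193 without it). FLRT2, a leucine-rich adhesion protein, had 475 (p73 shRNA) and 446 (ns shRNA) at 100% confluence, against 217 (p73 shRNA) and 229 (ns shRNA) at 40%. It rose 2.01-fold (log2 1.01, SE 0.18, limma adjusted p 0.000446), and a second probe set was higher by 1.35 with p73 shRNA and 1.16 with ns shRNA. CYFIP2, a regulator of actin branching, was below the filter with 58.1 or less on every array.

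**Figure D3:**
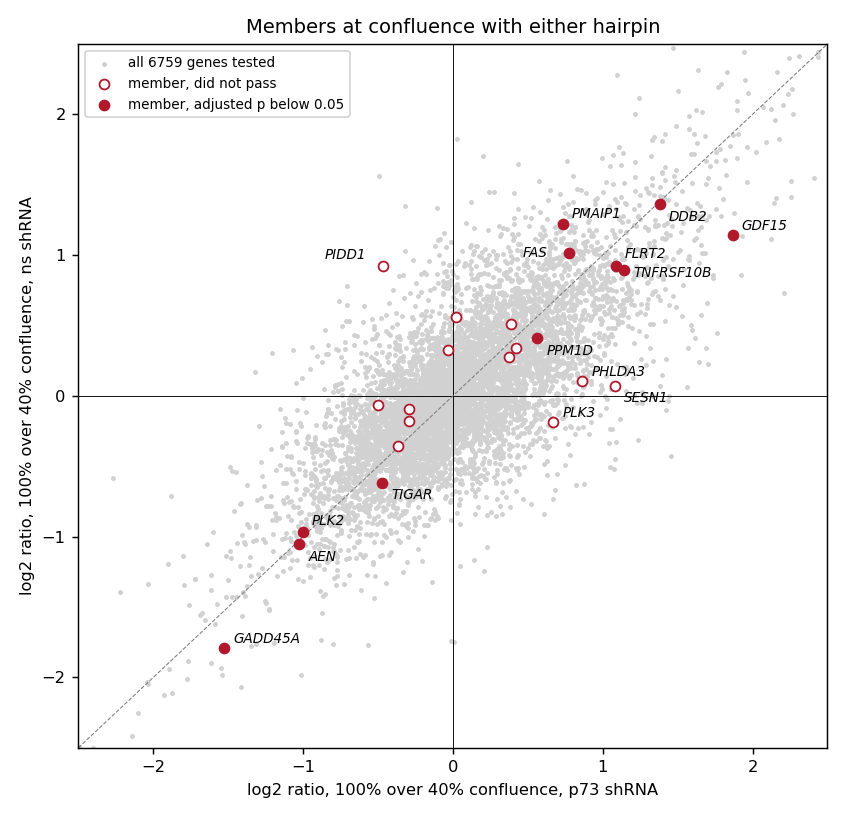
Log2 ratios of 100% over 40% confluence with p73 shRNA (horizontal) and with ns shRNA (vertical) for the 24 members (red; filled where the limma adjusted p is below 0.05) and all 6759 genes tested (grey; 37 lie outside the axes); the dashed line marks equal ratios. The 11 filled points lie on the same side of 0 on both axes, 7 above and to the right and 4 below and to the left of the origin, while PIDD1 and PLK3 lie on opposite sides and SESN1 and PHLDA3 are near 0 with ns shRNA.

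Several members have more than 1 probe set, which gives a second reading of the same RNA. Of the 32 member probe sets above the filter, 19 were higher at confluence with both hairpins, 9 were lower with both and 4 were mixed. The share over all probe sets was not counted, but 76.2% of all genes tested had the same direction with both hairpins. FAS, PMAIP1, FLRT2, BAX and EI24 agreed in direction across all their probe sets. So did the 2 of TP53AIP1, both dim and both lower. Probe sets of TNFRSF10B differed in direction although all 3 lay above the filter, and in PLK3, PIDD1, SFN, GDF15, MDM2 and CYFIP2 the difference involved a probe set below it.

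**Figure D4:**
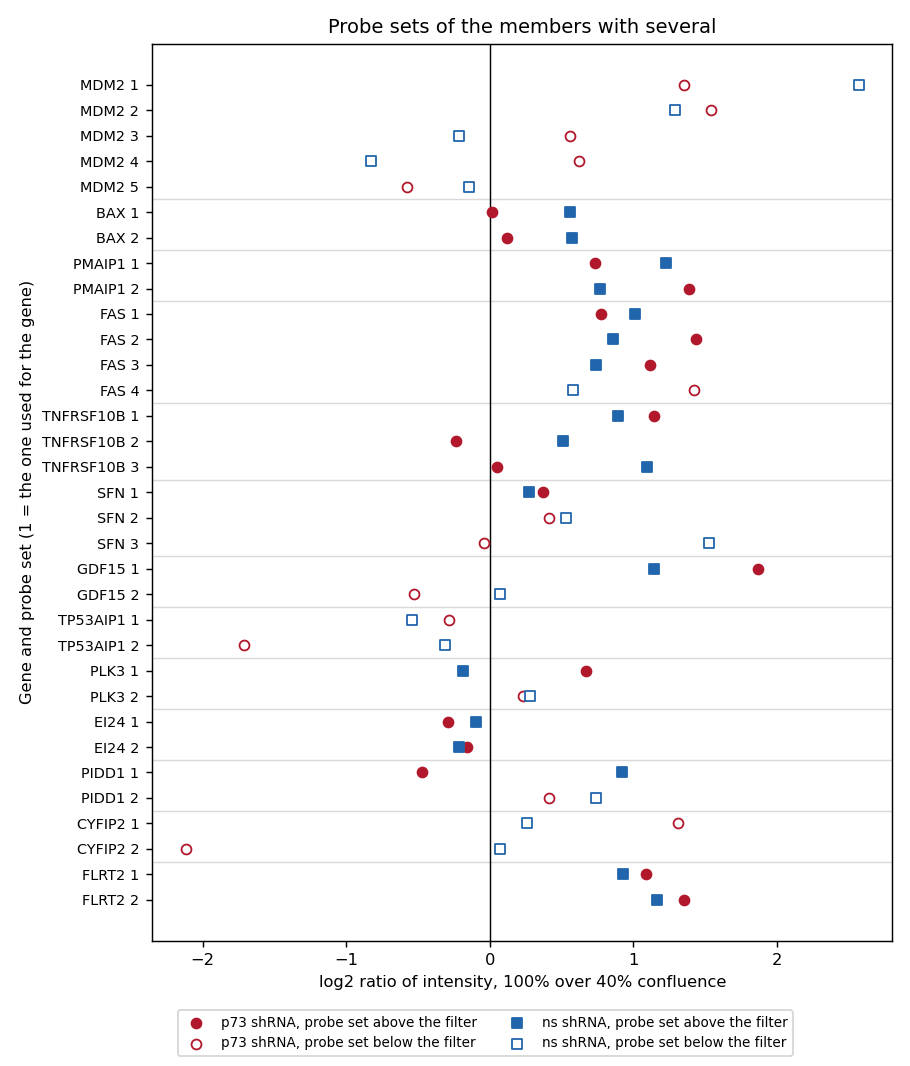
Log2 ratio of intensity at 100% over 40% confluence for every probe set of the 13 members with several (red circles p73 shRNA, blue squares ns shRNA; open symbols are probe sets below the brightness filter). All 4 FAS, 2 PMAIP1 and 2 FLRT2 probe sets lie to the right of 0, whereas the 5 MDM2 probe sets, all open, lie on both sides.

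Cultures with p73 shRNA were then set against those with ns shRNA, to ask whether targets of the family change when p73 is targeted. Of the 24 members 1 rose with p73 shRNA (PIDD1), 1 fell (GDF15) and 22 did not pass. Each of these 2 passed the brightness filter only through the hairpin with which it is higher, so the 2 calls depend on the filter and are given as values of single genes. Over all genes 0.385% rose and 0.71% fell, 1.09% in either direction. The members' median log2 ratio was 0.07 at 100% confluence and 0.05 at 40%, and that of all genes 0.00 at each stage. The direction was the same at both stages for 13 of 24 members (54.2%) and for 58.5% of all genes, and no member was 1.5-fold changed in the same direction at both, against 1.23% of genes (0.222% at 2-fold). An unadjusted p below 0.05 was reached by 3 members and 11.9% of genes. With an intensity trend in the spread, limma called PIDD1 alone, which was higher, against 1.14% of genes higher and 1.58% lower.

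PIDD1 had 178 (p73 shRNA) and 119 (ns shRNA) at 100% confluence, and 251 (p73 shRNA) and 57.1 (ns shRNA) at 40%. It was higher with p73 shRNA at both stages, by 0.54 at 100% and 1.93 at 40%, which averages 1.24 (SE 0.24, limma adjusted p 0.0169). Its mean log2 level was 7.80 with p73 shRNA and 6.56 with ns shRNA, the second below the filter at 6.94, and without the filter it did not pass (limma adjusted p 0.782). The value rests mostly on the pair at 40%, since without that pair the log2 ratio is 0.54. A second PIDD1 probe set below the filter was at -0.24 (100%) and 0.09 (40%) and did not show the rise. The call was lost in 5 of 8 alternative settings, among them quantile normalization (limma adjusted p 0.154), and adjusted p over the 8 ranged between 0.00171 and 1.00.

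GDF15 had 190 (p73 shRNA) and 273 (ns shRNA) at 100% confluence, and 43.6 (p73 shRNA) and 117 (ns shRNA) at 40%. It was lower with p73 shRNA at both stages, with log2 ratios of -0.50 at 100% and -1.22 at 40%, which average -0.86 (SE 0.20, limma adjusted p 0.0416). Its mean log2 level was 6.72 with p73 shRNA, below the filter at 6.94, and 7.58 with ns shRNA, and without the filter it did not pass (limma adjusted p 0.757). Without the pair at 40% the log2 ratio is -0.50. The call is close to the threshold and was lost in 6 of 8 alternative settings, for example with an intensity trend in the spread (limma adjusted p 0.0772), with adjusted p between 0.0192 and 1.00.

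Of the 22 members that did not pass, DDB2 had the largest average ratio. It was higher with p73 shRNA by 0.46 at 100% confluence and by 0.44 at 40%, with intensities of 536 (p73 shRNA) and 387 (ns shRNA) at 100% and of 199 (p73 shRNA) and 144 (ns shRNA) at 40%. The average of 0.45 had a 95% interval of 0.08 to 0.82 for this gene alone and did not pass over all genes (limma adjusted p 0.302). For the other members that had passed at confluence, GDF15 aside, the average ratio with p73 shRNA lay between -0.29 for TNFRSF10B and 0.45 for DDB2. That of PLK2 was 0.00 with a 95% interval of -0.36 to 0.37, that of GADD45A -0.03 with an interval of -0.40 to 0.35, and that of FAS 0.17 with an interval of -0.20 to 0.55. These intervals use the pooled spread, and they do not show that the hairpin left these genes as they were. At 40% confluence the other probe sets of FAS were lower with p73 shRNA, at -0.86, -0.48 and -0.79, whereas the one used was at 0.29. The second probe set of PMAIP1 was likewise at -0.74, against 0.43 for the one used. Averaged over its probe sets, FAS came to -0.27, PMAIP1 to -0.13 and TNFRSF10B to 0.024, each on the other side of 0 from the value of the brightest probe set, and none passed.

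Among the members with opposite directions at the 2 stages, SESN1, PLK3 and PHLDA3 had the largest difference between the stages. Opposite directions were common, since only 13 of 24 members and 58.5% of all genes had the same direction at both. SESN1 was at 0.47 with p73 shRNA at 100% confluence and at -0.55 at 40%, PHLDA3 at 0.34 and -0.42, and PLK3 at 0.57 and -0.29. With 1 array in each group this difference has no test. The absolute difference between the stages was 1.0 or more on the log2 scale for 2 members, SESN1 and PIDD1, and for 2.47% of all genes. Its median was 0.22 over the members and 0.24 over all genes.

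**Figure D5:**
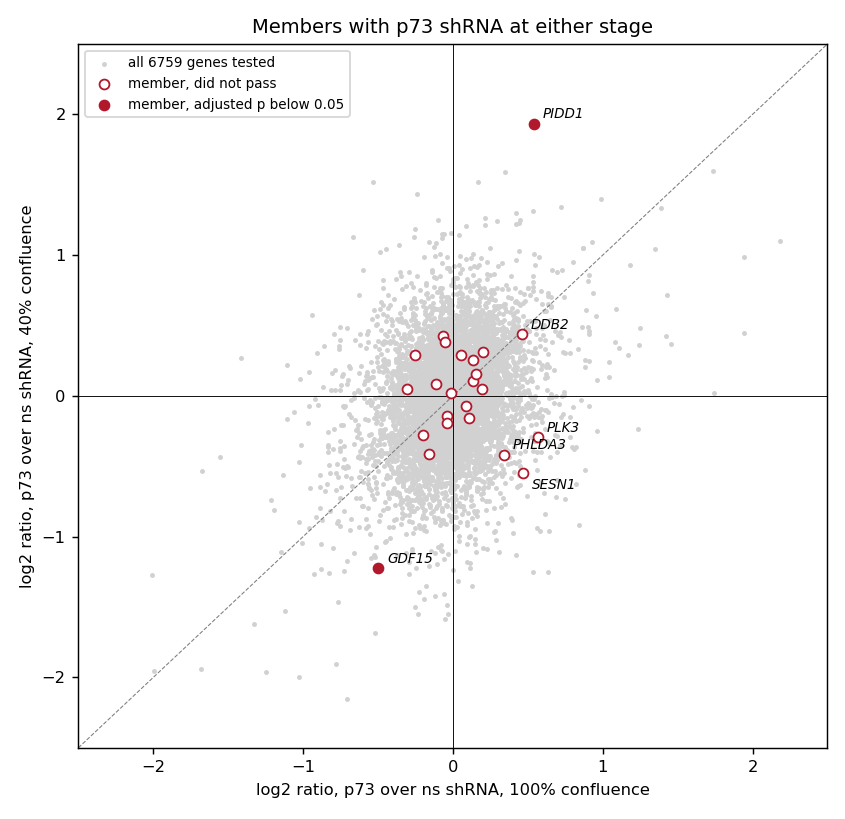
Log2 ratios of p73 over ns shRNA at 100% confluence (horizontal) and at 40% confluence (vertical) for the 24 members (red; filled where the limma adjusted p is below 0.05) and all 6759 genes tested (grey; 3 lie outside the axes); the dashed line marks equal ratios. Members gather around the origin apart from PIDD1 (0.54 and 1.93) and GDF15 (-0.50 and -1.22).

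Other genes of the pathway were read from 3 further lists, named by the largest ratios among those called. Of 66 other genes reported as targets of the family, 44 lay above the filter: at confluence 18 rose, 6 fell and 20 did not pass (54.5% called, against 30.6% of all genes), and with p73 shRNA 1 rose, 3 fell and 40 did not pass (9.09% called, against 1.09%). Their median log2 ratio was 0.33 at confluence and 0.00 with p73 shRNA. This list was chosen with earlier results of these data known, so its shares are no independent test. With p73 shRNA, KCNK1, JAG1 and TRIM22 were called but passed the brightness filter only through the hairpin with which each is higher. Over all genes, 24 of the 74 called with p73 shRNA also passed it through 1 hairpin only. CDKN1A, the cell cycle inhibitor p21, had 813 (p73 shRNA) and 681 (ns shRNA) at 100% confluence, against 191 (p73 shRNA) and 197 (ns shRNA) at 40% (log2 1.88, SE 0.18, limma adjusted p 8.13e-07). On the log2 scale FUCA1, a lysosomal fucosidase, rose by 1.71 on average, ANKRA2 by 1.67, the potassium channel KCNK1 by 1.40 and the tetraspanin CD82 by 1.27, while the growth factor binding protein IGFBP3 fell by 1.37. With p73 shRNA, the average log2 ratio of KCNK1 was -1.98, that of the Notch ligand JAG1 -1.51 and that of FUCA1 -0.77 (limma adjusted p 0.0409, and 0.062 with an intensity trend). TRIM22, an interferon-inducible ubiquitin ligase, rose by 1.35 at 100% confluence and 1.05 at 40%. FUCA1 had 285 (p73 shRNA) and 480 (ns shRNA) at 100% confluence, and 76.1 (p73 shRNA) and 143 (ns shRNA) at 40%. It was thus higher at confluence and lower with p73 shRNA in every pair of arrays. At 40% confluence the mean log2 levels of FUCA1 and KCNK1 lay below the filter at 6.94. Both passed it only through their confluent arrays, so their calls at confluence depend on the filter. The same holds for TRIM22, which was called higher at confluence (limma adjusted p 5.59e-05). JAG1 was called lower at confluence (limma adjusted p 0.0197) and passed the filter only through its arrays at 40%. The 54.5% called includes these genes, and the rest of the list was not checked for this.

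Of 25 regulators of p53 family proteins above the filter, limma called 0 with p73 shRNA (5 had an unadjusted p below 0.05), and at confluence 6 rose, 1 fell and 18 did not pass. The share called at confluence, 28.0%, was near the 30.6% of all genes. The DNA damage kinase ATM rose by 1.07 (limma adjusted p 0.000294), with 920 (p73 shRNA) and 832 (ns shRNA) at 100% confluence, against 388 (p73 shRNA) and 434 (ns shRNA) at 40%. Its probe set, like those used for JAG1 and CD82, carries the suffix of probes that can bind other transcripts. The checkpoint kinase CHEK2 rose by 0.70, the kinase ABL1 by 0.65, the acetyltransferase EP300 by 0.61 and the ligase TOPORS by 0.60, and the methyltransferase PRMT5 fell by 0.69. Of 29 measured cell division genes reported to fall when p53 is active, which share CHEK1 with the regulators, all were above the filter, and 2 rose, 5 fell and 22 did not pass at confluence (24.1% called, below the share of all genes). The phosphatase CDC25A fell by 1.36, MYBL2 by 0.76, CDC20 by 0.72, KIF23 by 0.71 and PLK1 by 0.54, whereas CDC25C rose by 0.77. With p73 shRNA limma called 0 of the 29 (0 had an unadjusted p below 0.05), and their median log2 ratio was -0.02.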

How the data were processed

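Biotin-labelled RNA, isolated with trizol, was hybridised to Affymetrix arrays, per the labels' protocols. The deposited table holds 1 intensity per probe set and array. Its summarising and scaling software was not given in the sources used. By the values, these intensities are linear and above 0, with a mean of 499.9 on each array after trimming 2% at either end, so they were used as deposited. The mean is then fixed, but the median intensity was 118 to 121 on the arrays of confluent cells and 104 to 106 at 40% confluence. The number of arrays limits the precision.

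Groups came from the sample titles. Of 22277 probe sets, 62 were controls, 19064 named 1 gene, 1043 several and 2108 none; 19052 were updated by Entrez ID. Values were log2(intensity + 11.6), the 20th percentile. limma 3.58.1 (R 4.3.3) fitted confluence and hairpin with 1 residual degree of freedom, two-sided, without an intensity trend, because with it the prior degrees of freedom were infinite and a gene's own arrays did not enter its error. Without it they were 15.8. Over the alternatives they were 2.36 to infinite, so calls near the threshold are uncertain.

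The members, lists and tests were chosen with earlier results of these data known. The genes named are all members, TP73, MDM4, CDKN1A and up to 6 called genes with the largest ratio per list and comparison. Alternatives were quantile or median scaling, other pseudocounts and filters, the mean of or each probe set, the trend, and a model without the other factor. Promoters were searched in Python 3.11.15, and figures drawn with matplotlib 3.10.9.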

Additional observations from a re-analysis of the deposited data

Results flagged for a closer look

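SESN1 moved in opposite directions with p73 shRNA at the 2 stages, at log2 ratios of 0.47 at 100% confluence and -0.55 at 40%. PHLDA3 did likewise, at 0.34 at 100% and -0.42 at 40%. Opposite log2 ratios of at least 0.3 each were found in these 2 of 24 members and in 2.77% of all 6759 genes. PIDD1 moved in opposite directions at confluence, at -0.47 with p73 shRNA and 0.92 with ns shRNA, as did 2.1% of all genes by the same measure. With 1 array in each group, these differences were not tested.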

How the results depend on the processing

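The model with both factors compares arrays within pairs that share the other factor. No block by replicate number could be added, since each group has 1 array, and no array could be left out of a model with 1 residual degree of freedom. For the members' average ratios at confluence, 199 of 223 values under the alternatives kept their direction and side of the threshold, as did 207 of 223 with p73 shRNA. Other filters, the intensity trend, each probe set fitted and the model without the other factor left a gene's average ratio unchanged. Its direction could not change there, so these totals are no measure of stability. With p73 shRNA most members had not passed in the main model, and staying so counts as kept. Of the 2 that had, PIDD1 passed in 3 of 8 alternatives and GDF15 in 2 of 8. Without the brightness filter limma called 0 genes in either comparison (2336 had an unadjusted p below 0.05 at confluence and 766 with p73 shRNA) and 0 members (10 and 2 unadjusted). At confluence, 1152 genes were called without the other factor, against 2070 in the model with both, and 7 members at the stricter filter, which tests 11 of them, against 11. After dividing arrays by their medians, which gave all genes a median ratio of -0.18 in place of 0.01, 815 genes rose and 1754 fell, against 1237 and 833 as deposited, and 6 members rose and 6 fell, against 7 and 4: PPM1D was lost (limma adjusted p 0.198) and TP53I3 and TRIAP1 fell. PERP then turned to -0.040 at confluence, and with p73 shRNA EI24 to 0.017 and GADD45A to 0.0024. With the mean of probe sets FAS turned to -0.27, PMAIP1 to -0.13 and TNFRSF10B to 0.024 with p73 shRNA. The number of genes called with p73 shRNA, 74 in all, was 184 with the intensity trend, 132 with the higher pseudocount and with the stricter filter, 118 after median scaling, 42 with the lower pseudocount, 19 with each probe set fitted, 15 after quantile normalization, 0 without the other factor (72 unadjusted) and 7 when probe sets of a gene were averaged. The 2 members called, PIDD1 and GDF15, were called under the higher pseudocount and median scaling; with the trend 1 was, PIDD1. Under the other 7 settings limma called 0 members, with 0 to 3 below an unadjusted p of 0.05; in 2 of these, the stricter filter and the mean of probe sets, PIDD1 and GDF15 were below the filter and not tested. The causes of these changes were not tested.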
